A study of Mus musculus with 28 samples.

Results

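The NMDA receptor subunit genes measured here are Grin1, Grin2a, Grin2b, Grin2c, Grin2d and Grin3a, 6 of the 41549 genes counted. They were chosen by name, as the rows of the count tables that carry these symbols, and all 6 were found, each once. The seventh gene of the family, Grin3b, had at most 1 count in a library and is not followed further. RNA was counted in nuclei sorted from mouse motor cortex, taken from 7 animals that the sample titles number from 17 to 23. Every animal carried an adeno-associated virus (AAV) for the nuclease Cas9 in both hemispheres: AAV-Cas9-miR-124-empty in the left and AAV-Cas9-miR-124-g4 in the right hemisphere. Nuclei were sorted by an HA tag into an HA-positive fraction, listed by the labels as positive for Cas9, and an HA-negative fraction from the same injected tissue.

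This gave 4 groups of 7 libraries, 1 library per animal in each: empty HA-negative, g4 HA-negative, empty HA-positive and g4 HA-positive. The labels used here do not give strain, sex, age, the promoter that drives Cas9 or the meaning of g4. There was no uninjected tissue, so all groups share the injection and the AAV, and vector and hemisphere cannot be told apart. The design bears on 2 questions: whether RNA of these subunits differed between nuclei that carried the g4 or the empty vector, and whether it differed between HA-positive and HA-negative nuclei.

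NMDA receptors are glutamate-gated cation channels that open when glutamate and a co-agonist, glycine or D-serine, are bound and depolarization has relieved a block by magnesium. Each channel contains the obligatory GluN1 subunit, encoded by Grin1, which binds the co-agonist, together with GluN2 subunits (Grin2a to Grin2d), which bind glutamate, or GluN3 subunits (Grin3a, Grin3b), which bind glycine. In the cortex GluN2B is the GluN2 subunit of early life and GluN2A is added as synapses mature, GluN2C is best known from cerebellar granule cells and glia, GluN2D from interneurons, and GluN3A lowers calcium permeability and magnesium block. miR-124 is a microRNA of neurons that pairs through its seed with matching sequences in the 3′ untranslated regions (3′ UTRs) of messenger RNAs.

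Since the vectors are named for miR-124, the longest annotated 3′ UTR of each subunit gene was searched on its sense strand for the matches GTGCCTT (type 7mer-m8), TGCCTTA (type 7mer-A1) and their overlap, the 8mer. Grin1, Grin2a, Grin2b and Grin3a each held 1 match, Grin2c and Grin2d held 0, and none held the 8mer. The matched stretches are shown 5′ to 3′ on the transcribed strand, with the seed match in capitals.
Grin1, 7mer-m8, chr2:25291290-25291310: ccaagcgcGTGCCTTccccga
Grin2a, 7mer-A1, chr16:9570542-9570562: tgtttaatTGCCTTAgagatg
Grin2b, 7mer-A1, chr6:135717089-135717109: ttacagatTGCCTTAatcctg
Grin3a, 7mer-m8, chr4:49664455-49664475: catagtgtGTGCCTTctataa
All coordinates are of GRCm38, all 4 genes lie on the minus strand, and the sequences were read from the GENCODE transcripts of that build. Such matches were common: 20.0% of 20659 longest 3′ UTRs held at least 1, and among 3′ UTRs within 1.5 times the same length the share was 20.0% for Grin1, 71.4% for Grin2a, 95.7% for Grin2b and 41.5% for Grin3a. The 3′ UTRs differed widely in length, from 402 bases in Grin2c and 897 in Grin2d through 1187 in Grin1 and 3615 in Grin3a to 9929 in Grin2a and 18865 in Grin2b. A match describes these letters only and is not evidence of a site in use.

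The genes lie apart from each other, on GRCm38 at chr2:25291181-25319187 (Grin1), chr16:9567898-9995560 (Grin2a), chr6:135713233-136173511 (Grin2b), chr11:115249169-115267243 (Grin2c), chr7:45831883-45878378 (Grin2d) and chr4:49661611-49845744 (Grin3a). The strand setting of the counting is not given in the sources used here, so reads of overlapping genes cannot be assigned with certainty. Annotated genes that shared exon sequence with a subunit had few counts in all 28 libraries together: 21 in Gm26653 beside Grin2b, 17 in Gm45441, which is antisense to the end of Grin2d, and 0 in Grin1os, the antisense gene of Grin1. Kdelr1 overlaps Grin2d on the opposite strand, shares 0 exon bases with it and had 202 counts. Grin2d itself had 27 and 24 counts in the empty and g4 HA-negative groups, and 85 and 102 in the HA-positive ones. Any part of Kdelr1 reads in the Grin2d counts was not tested.

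The libraries held 248612 to 902944 counts and 8687 to 13668 detected genes, and the 6 subunit genes together took 0.194 to 0.333% of a library. Fewer than 10000 genes were detected in the empty HA-positive libraries of animals 17, 21 and 22 and in the g4 HA-positive library of animal 18. The g4 HA-positive library of animal 19 stood apart: it held both Xist (614 CPM, counts scaled to the library size) and Y-linked transcripts (45.7 CPM). The other libraries of animal 19 had 0 CPM of Xist. Their Y-linked transcripts were at 142 (empty HA-positive), 151 (empty HA-negative) and 168 CPM (g4 HA-negative). The source of the Xist counts was not tested. Summed oligodendrocyte markers in the g4 HA-positive library of animal 19 reached 1472 CPM against 106 to 224 CPM in the other g4 HA-positive libraries. Without it, the g4 HA-positive means given further on were 232 ± 29.6 CPM for Grin1, 598 ± 68.2 for Grin2a, 1645 ± 212 for Grin2b, 11.8 ± 9.69 for Grin2c, 30.2 ± 19.0 for Grin2d and 85.3 ± 30.4 for Grin3a (SD, n = 6). The edgeR tests then called the same number of subunit genes (1) and of other pathway genes (7) between fractions with g4. Against the labelled tissue, excitatory neuron markers of the cortex summed to 419 CPM or more in every library. Listed markers of striatal projection neurons summed to 282 to 2277 CPM in HA-negative and 165 to 609 CPM in HA-positive libraries. In the empty HA-positive group Pde10a (86.9 CPM) and Tac1 (85.7 CPM) had the highest means of these markers. Tac1 was at 67.1 CPM in empty HA-negative libraries. Drd2 averaged 1.06 CPM and Adora2a 0 CPM in the empty HA-positive group. Whether HA-positive nuclei included striatal projection neurons was not tested. Excitatory neuron markers averaged 917 and 969 CPM in empty and g4 HA-negative, and 599 and 727 CPM in empty and g4 HA-positive libraries. Oligodendrocyte markers summed to 1200 to 2108 CPM in empty and 1469 to 2699 CPM in g4 HA-negative libraries. In empty HA-positive libraries they summed to 52.0 to 126 CPM. The HA-positive libraries were richer in inhibitory neuron markers. The 12 markers summed to 844 to 1209 CPM in empty HA-negative, 736 to 1199 CPM in g4 HA-negative, 2501 to 3889 CPM in empty HA-positive and 1653 to 3316 CPM in g4 HA-positive libraries (2144 to 3316 CPM without animal 19). Microglial markers summed to 242 to 590 CPM in HA-negative and to 2.74 to 44.5 CPM in HA-positive libraries other than that of animal 19, and the empty HA-positive group had 0 counts of Cx3cr1, P2ry12 and C1qa. In sorted bulk nuclei, fewer nuclei of a type and less RNA per nucleus cannot be told apart. The microRNA for which the vectors are named was checked in its hairpin genes: Mir124a-2 had 57 counts over 6 of the 7 g4 HA-positive libraries and 0 in the other 3 groups, and Mir124a-1 and Mir124a-3 had 0 counts everywhere. The host transcript Mir124-2hg averaged 36.3 and 40.6 CPM in empty and g4 HA-negative, and 79.7 ± 52.7 and 126 ± 30.5 CPM in empty and g4 HA-positive libraries (SD, n = 7). The source of the hairpin counts was not tested, and mature miR-124 was not analysed here.

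Grin3a was the subunit that rose in HA-positive nuclei, with either vector. Grin2d also averaged higher there at lower counts, but it failed the filter of the main tests between fractions. Whether it passed other tests depended on the test and the vector. Grin1 and Grin2b were at nearly the same level in all 4 groups. Grin2a was slightly higher in HA-positive nuclei with the empty vector, short of the threshold. Between g4 and empty vectors, 0 of the subunit genes passed the test in either fraction. The next paragraphs give the values by subunit, as CPM scaled with TMM factors over all 28 libraries and, for the tests, as log2 fold changes ± SE from edgeR's quasi-likelihood test with Benjamini-Hochberg adjustment over all genes tested.

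**Figure D1:**
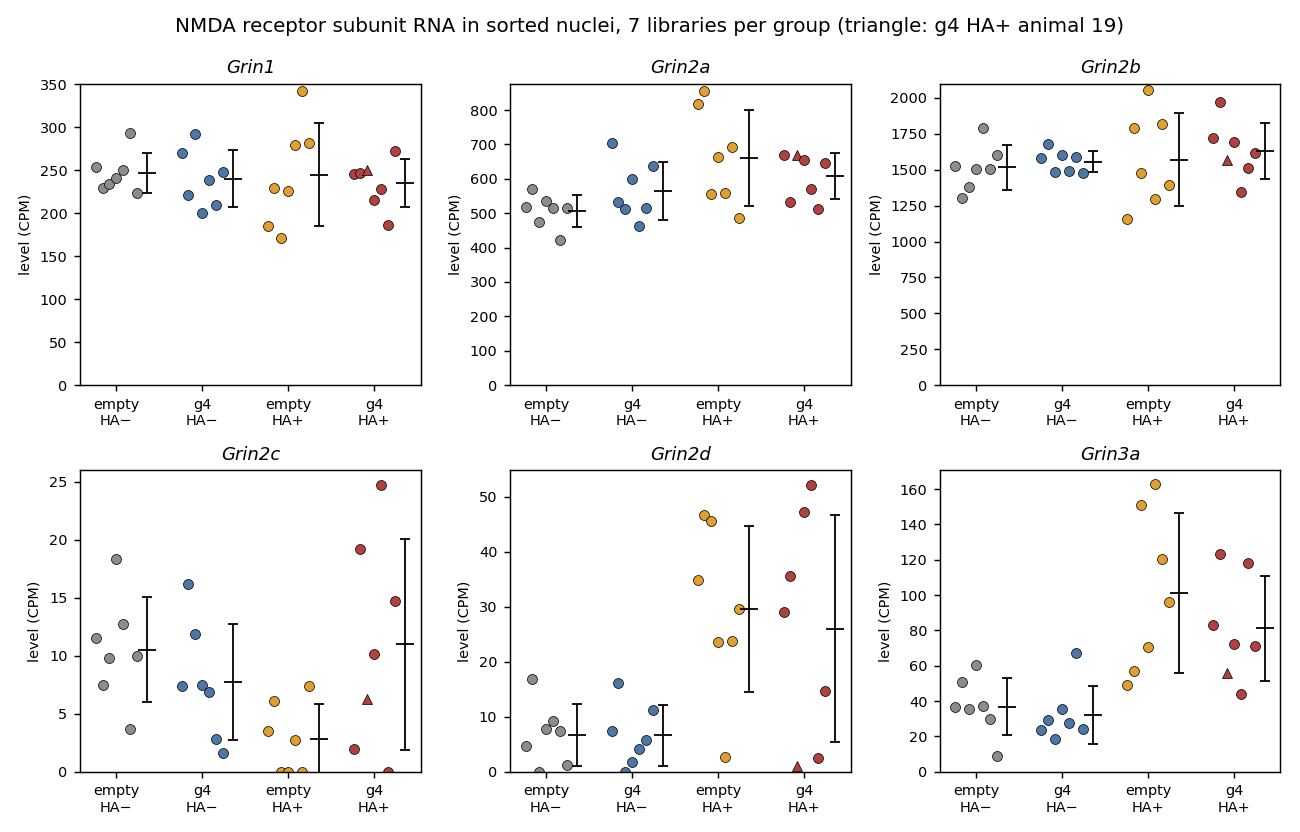
Level of each subunit gene (vertical axis, CPM, linear and starting at 0) in the 4 groups, 1 point per library, with a horizontal line for the mean and a bar for ± SD over 7 libraries. The triangle is the g4 HA-positive library of animal 19. Grin3a and Grin2d sit higher in both HA-positive groups, while the group means of Grin1 lie between 235 and 246 CPM and those of Grin2b between 1517 and 1634 CPM.

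Grin1, the gene of the obligatory subunit, averaged 246 ± 23.2 CPM in empty HA-negative, 240 ± 33.1 in g4 HA-negative, 245 ± 60.0 in empty HA-positive and 235 ± 27.9 in g4 HA-positive libraries (SD, n = 7). The lowest, median and highest libraries were at 224, 241 and 293 CPM (empty HA-negative), 200, 238 and 292 (g4 HA-negative), 171, 229 and 342 (empty HA-positive) and 186, 246 and 272 (g4 HA-positive). All 4 groups overlapped, and the empty HA-positive libraries spread most. The log2 fold change of HA-positive over HA-negative nuclei was -0.00 ± 0.16 with the empty vector (95% interval -0.31 to 0.30) and -0.03 ± 0.13 with g4 (-0.28 to 0.23). Neither passed the test, and the intervals leave room for differences of about 0.3 on the log2 scale in either direction.

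Grin2b, the subunit gene with the highest CPM before any scaling to length, averaged 1517 ± 155 CPM in empty HA-negative, 1557 ± 76.1 in g4 HA-negative, 1569 ± 324 in empty HA-positive and 1634 ± 195 in g4 HA-positive libraries (SD, n = 7). By lowest, median and highest library the levels were 1305, 1508 and 1790 CPM, then 1479, 1585 and 1676, then 1160, 1476 and 2055, and last 1346, 1618 and 1973 in the same order of groups. The empty HA-positive range thus enclosed all other libraries. HA-positive over HA-negative nuclei gave 0.05 ± 0.12 with the empty vector (95% interval -0.18 to 0.28) and 0.07 ± 0.09 with g4 (-0.10 to 0.24), neither past the threshold.

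Grin2a, the gene of the later GluN2 subunit, averaged 507 ± 47.1 CPM in empty HA-negative, 566 ± 84.0 in g4 HA-negative, 661 ± 139 in empty HA-positive and 608 ± 68.0 in g4 HA-positive libraries (SD, n = 7). The empty HA-negative libraries ran from 422 through 517 to 570 CPM (lowest, median, highest) and the empty HA-positive ones from 485 through 663 to 855, so that the upper libraries of the second group lay clear of the first while the lower ones overlapped it. The difference was 0.39 ± 0.13 on the log2 scale, higher in 6 of 7 animals, with an adjusted p = 0.0645 that missed the 0.05 threshold. It passed with limma voom (adjusted p = 0.0400), with all 4 groups in 1 model (0.0446) and without animal 23 (0.0495). It missed the threshold with the animal as a block (adjusted p = 0.110), without a filter (0.174), and without each of the other 6 animals in turn (0.0671 to 0.190). With g4 the libraries ran from 463 through 532 to 704 CPM in HA-negative and from 513 through 646 to 671 CPM in HA-positive nuclei, with a difference of 0.11 ± 0.11 (adjusted p = 0.692).

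Grin2b counts outnumbered Grin2a counts in every library. Grin2b made up 74.9 ± 2.82% of the counts of the pair in empty HA-negative, 73.4 ± 2.88% in g4 HA-negative, 70.2 ± 5.71% in empty HA-positive and 72.7 ± 3.06% in g4 HA-positive libraries (SD, n = 7). The lowest library, at 58.7%, was the empty HA-positive one of animal 17, and the highest, at 78.8%, the g4 HA-positive one of animal 18. A share within a library does not depend on scaling between libraries. None of the 4 comparisons of 2 groups passed an exact two-sided permutation test adjusted over 12 such tests. The largest difference was -4.70 percentage points for HA-positive against HA-negative nuclei with the empty vector (exact permutation p = 0.0530, adjusted p = 0.127, lower in 6 of 7 animals).

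Grin2c, best known from cerebellar granule cells and astrocytes, was near the limit of detection. Its counts per library were 2 to 11 in empty HA-negative, 1 to 7 in g4 HA-negative, 0 to 3 in empty HA-positive and 0 to 18 in g4 HA-positive libraries. These came to 10.5 ± 4.54, 7.74 ± 5.02, 2.82 ± 3.06 and 11.0 ± 9.09 CPM (SD, n = 7). It was at 0 in the empty HA-positive libraries of animals 19, 20 and 22 and in the g4 HA-positive library of animal 22, where a count of 0 allows up to 8.55, 4.72, 5.93 and 7.54 CPM (3 counts, counting error only). Grin2c failed the filter on low counts in every comparison. In an exact two-sided permutation test of CPM, added after the data were seen and adjusted over 8 tests of Grin2c and Grin2d, it was lower in HA-positive than in HA-negative nuclei with the empty vector (difference -7.70 CPM, p = 0.00233, adjusted p = 0.0140, lower in 7 of 7 animals). Paired within animals by exact sign flips the adjusted p was 0.125. The smallest unadjusted p that these flips allow is 0.0156, so after adjustment over 8 tests they could hardly pass, for Grin2c or Grin2d. The comparison of fractions with g4 gave 3.24 CPM (exact permutation p = 0.425, adjusted p = 0.567). In HA-positive nuclei g4 exceeded empty by 8.16 CPM (exact permutation p = 0.0455, adjusted p = 0.0909, higher in 5 of 7 animals), which missed the threshold. In the edgeR fit without a filter, 0 of these Grin2c differences passed (adjusted p = 0.239 for the fractions with the empty vector, 0.430 for g4 against empty in HA-positive nuclei). Astrocyte markers, of which the list has 8, summed to 1212 to 1565, 1152 to 1695, 645 to 1410 and 942 to 2602 CPM in the same order of groups, also lowest in the empty HA-positive libraries, and their part in the Grin2c values was not tested.

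Grin2d, the interneuron-associated GluN2 subunit whose channels close slowly, had 0 to 9 counts in the empty HA-negative and 0 to 7 in the g4 HA-negative libraries, and 1 to 23 and 1 to 38 in the empty and g4 HA-positive ones. Its levels were 6.75 ± 5.64, 6.63 ± 5.58, 29.6 ± 15.1 and 26.0 ± 20.6 CPM (SD, n = 7). In the empty HA-positive group the libraries of animals 17, 18, 19, 20, 21, 22 and 23 were at 34.9, 46.6, 45.6, 23.6, 2.76, 23.7 and 29.6 CPM and the g4 HA-positive ones at 29.0, 35.7, 1.04, 47.2, 52.2, 2.51 and 14.7 CPM. In each HA-positive group most libraries lay above every HA-negative library, whose highest was 16.9 CPM, but 1 empty library (animal 21) and 3 g4 libraries (animals 19, 22 and 23) did not. The g4 library of animal 19 was the lowest of all HA-positive libraries, and without it the g4 HA-positive mean was 30.2 ± 19.0 CPM (n = 6).

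The filter on low counts removed Grin2d from the comparisons of the 2 fractions. The exact two-sided permutation test added after seeing the data gave a difference of 22.8 CPM with the empty vector (p = 0.00350, adjusted p = 0.0140, higher in 6 of 7 animals), and an adjusted p of 0.125 when paired within animals by exact sign flips. With g4 it gave 19.4 CPM (exact permutation p = 0.0402, adjusted p = 0.0909, higher in 6 of 7 animals), and without the library of animal 19 it gave 23.6 CPM (p = 0.0105, adjusted p = 0.0280). In the edgeR fit without a filter, Grin2d passed with both vectors, at 2.05 ± 0.62 (adjusted p = 0.0292) and 2.03 ± 0.53 (adjusted p = 0.00862). With all 4 groups in 1 model it passed with the empty vector (2.09 ± 0.64, adjusted p = 0.0297) and not with g4 (2.03 ± 0.65, adjusted p = 0.0520). In that model Grin2d passed the filter through its HA-positive libraries. The size was thus about 4-fold in each of these fits, while the call with g4 depended on the fit.

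Among all GluN2 counts, Grin2d took 0.333 ± 0.293% in empty HA-negative, 0.305 ± 0.250% in g4 HA-negative, 1.31 ± 0.693% in empty HA-positive and 1.14 ± 0.949% in g4 HA-positive libraries (SD, n = 7). It remained a minor part of the GluN2 pool in every library, the highest being 2.62% in the g4 HA-positive library of animal 21. The difference between fractions was 0.974 percentage points with the empty vector (exact two-sided permutation p = 0.00874, adjusted p = 0.0350 over 12 tests, higher in 6 of 7 animals), or adjusted p = 0.125 when paired within animals by exact sign flips. With g4 it was 0.835 percentage points (adjusted p = 0.127), and 1.02 percentage points without the library of animal 19 (adjusted p = 0.0332). The call with the empty vector was lost in 6 of the 7 exact tests that left out 1 animal, where the adjusted p ranged up to 0.130.

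Grin3a, the gene of the glycine-binding GluN3A subunit, showed the clearest difference between fractions. By animal from 17 to 23, its level in the empty HA-negative libraries was 36.8, 50.6, 35.3, 60.3, 37.1, 29.6 and 8.74 CPM, and in the empty HA-positive libraries 48.9, 56.8, 151, 70.9, 163, 121 and 96.3 CPM. Every animal was higher in the HA-positive fraction, by the least in animals 17, 18 and 20, where the ranges of the groups overlapped. The means were 36.9 ± 16.2 and 101 ± 45.3 CPM (SD, n = 7), a log2 fold change of 1.48 ± 0.33 (2.79-fold, 95% interval 0.83 to 2.13, adjusted p = 0.00409 by edgeR). It was 1 of 4 subunit genes tested in this comparison and the 1 called; over all 5538 genes tested, 3.5% were called higher and 7.01% in either direction.

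With the g4 vector the HA-negative libraries were at 23.9, 29.2, 18.7, 35.4, 27.4, 67.1 and 24.0 CPM of Grin3a and the HA-positive ones at 83.1, 123, 56.1, 72.5, 43.9, 118 and 71.0 CPM, from animal 17 to 23. Again all 7 animals were higher in the HA-positive fraction. The groups overlapped through the high HA-negative library of animal 22. The means were 32.2 ± 16.2 and 81.2 ± 29.9 CPM (SD, n = 7), a log2 fold change of 1.29 ± 0.29 (2.44-fold, 95% interval 0.72 to 1.85, adjusted p = 0.00387 by edgeR). Without the library of animal 19 it was 1.36 ± 0.29 (adjusted p = 0.00160). Of 4 subunit genes tested 1 was called, against 3.32% of all 6264 genes called higher and 6.4% in either direction. The HA-negative and HA-positive values of the 2 vectors come from different hemispheres of the same animals.

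The rise of Grin3a was past the threshold with both vectors in every alternative fit run, with the animal as a block, other scaling, other tools, no filter and each animal left out. Without the 4 HA-positive libraries of under 10000 genes it was 1.34 ± 0.33 with the empty vector (adjusted p = 0.00700) and 1.16 ± 0.28 with g4 (adjusted p = 0.00790). Relative to Grin1 in the same library, there were 15.1 ± 7.04 Grin3a counts per 100 Grin1 counts in empty HA-negative, 14.2 ± 8.63 in g4 HA-negative, 42.7 ± 23.0 in empty HA-positive and 35.5 ± 15.9 in g4 HA-positive libraries (SD, n = 7), the last being 37.7 ± 16.3 without the library of animal 19 (n = 6). This ratio does not depend on scaling between libraries. The highest, 88.3, was in the empty HA-positive library of animal 19. The fractions differed by 27.6 with the empty vector (exact two-sided permutation p = 0.00117, adjusted p = 0.0140, higher in 7 of 7 animals) and by 21.3 with g4 (p = 0.00524, adjusted p = 0.0315, higher in 7 of 7 animals). Paired within animals, both gave the smallest p that sign flips over 7 animals allow, 0.0156, and an adjusted p of 0.0938 in this exact test.

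**Figure D2:**
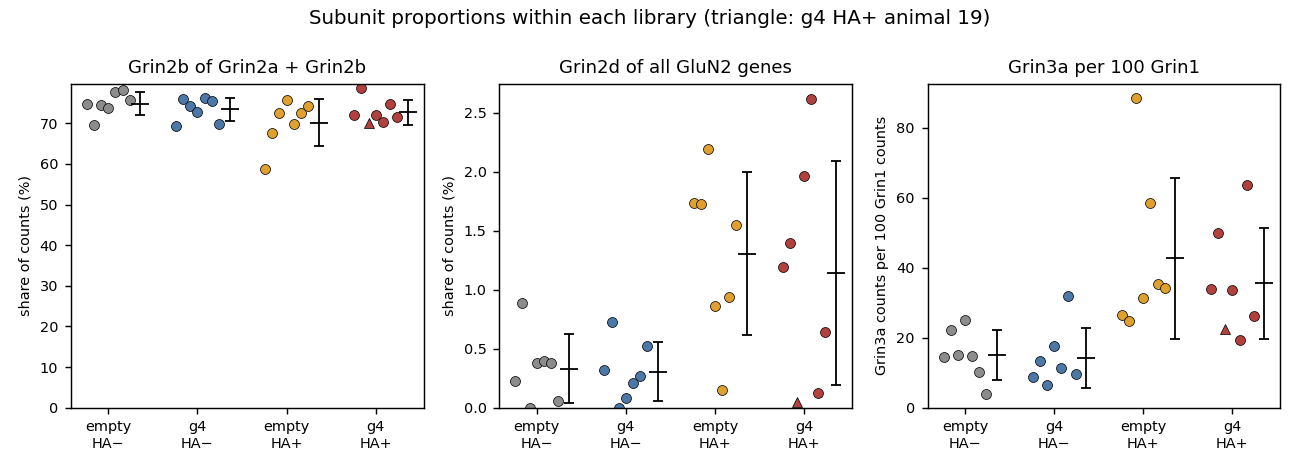
Subunit proportions within each library in the 4 groups: the share of Grin2b in the counts of Grin2a and Grin2b (%), the share of Grin2d in the counts of all GluN2 genes (%), and Grin3a counts per 100 Grin1 counts. Points are libraries, lines the mean and bars ± SD over 7 libraries, and the triangle is the g4 HA-positive library of animal 19. The first proportion lies between 58.7 and 78.8% throughout, while the other proportions are higher in most HA-positive libraries.

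Markers of inhibitory neurons moved in the same direction as Grin3a and Grin2d. Of the 12, 8 of 10 tested were called higher in HA-positive nuclei with the empty vector (median log2 fold change 1.61, against 0.01 over all genes tested) and 8 of 11 with g4 (median 1.33, against 0.01). Over all genes tested, 3.5% were called higher with the empty vector and 3.32% with g4. Gad1, which makes the transmitter GABA, went from 203 ± 53.6 to 728 ± 240 CPM with the empty vector and from 197 ± 46.2 to 635 ± 196 CPM with g4 (SD, n = 7). Sst, the somatostatin gene of one interneuron class, went from 87.7 ± 19.9 to 408 ± 122 CPM and from 81.3 ± 29.6 to 355 ± 76.7 CPM. Set against the summed inhibitory markers of the same library, Grin3a was nearly level across the groups, at 3.59 ± 1.92, 3.23 ± 1.27, 3.35 ± 1.56 and 3.21 ± 1.08 CPM per 100 CPM of markers (empty HA-negative, g4 HA-negative, empty HA-positive, g4 HA-positive; SD, n = 7). On the same scale Grin2d was at 0.628 ± 0.511, 0.733 ± 0.756, 0.958 ± 0.480 and 0.949 ± 0.736, and Grin1 fell from 23.5 ± 3.03 and 25.2 ± 6.88 in HA-negative to 8.21 ± 2.95 and 9.65 ± 3.08 in HA-positive libraries. These ratios were chosen after the data were seen and are a description with no test. Whether the share of inhibitory nuclei sets the Grin3a difference was not tested.

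The g4 and empty vectors were compared within each fraction. In HA-positive nuclei 5 subunit genes passed the filter and 0 were called by edgeR or limma voom, with 0 at an unadjusted p under 0.05 by edgeR. DESeq2 also called 0, but gave no adjusted p for Grin2d. Of all 5011 genes tested edgeR called 3 (0.0599%, with 0.02% higher and 0.0399% lower), and 335 had an unadjusted p under 0.05. Grin3a was at -0.34 ± 0.29 (95% interval -0.90 to 0.23, adjusted p = 0.885, lower in 4 of 7 animals), Grin2a at -0.12 ± 0.13 (-0.38 to 0.14), Grin1 at -0.06 ± 0.17 (-0.39 to 0.26) and Grin2b at 0.06 ± 0.13 (-0.19 to 0.30). Grin2d was at -0.17 ± 0.57 and turned to 0.07 ± 0.52 without the library of animal 19. In HA-negative nuclei 4 subunit genes were tested and 0 called by any of the 3 tools, with 0 at an unadjusted p under 0.05. Of all 6262 genes 0 were called by edgeR (0%), with 236 at an unadjusted p under 0.05, 1 by DESeq2 and 0 by limma voom. There Grin2a was at 0.15 ± 0.10 (-0.05 to 0.36), Grin1 at -0.04 ± 0.12, Grin2b at 0.03 ± 0.08 and Grin3a at -0.15 ± 0.33. For Grin1, Grin2a and Grin2b the intervals in both fractions lie within about 0.4 of 0 on the log2 scale, whereas that of Grin3a reached down to -0.90 in HA-positive and -0.79 in HA-negative nuclei and that of Grin2d in HA-positive nuclei ran from -1.28 to 0.94. The subunit genes with a miR-124 seed match, Grin1, Grin2a, Grin2b and Grin3a as printed above, did not pass the test in HA-positive nuclei. Of these 4, 1 (Grin2b) had a log2 fold change above 0, as did 49.2% of all genes tested. Grin2d, the tested subunit gene without a match, was at -0.17 ± 0.57.

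The difference between the g4 effects in the 2 fractions was tested on all 28 libraries in 1 model. Of 5 subunit genes tested 0 were called and 0 had an unadjusted p under 0.05. Of all 7197 genes 0 were called by edgeR (0%), with 359 at an unadjusted p under 0.05, and 0 by DESeq2 or limma voom. The differences, HA-positive minus HA-negative, were -0.26 ± 0.17 for Grin2a (95% interval -0.60 to 0.07), -0.17 ± 0.45 for Grin3a (-1.05 to 0.71), 0.03 ± 0.15 for Grin2b, -0.01 ± 0.20 for Grin1 and -0.05 ± 1.00 for Grin2d. The last interval ran from -2.02 to 1.91.

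**Figure D3:**
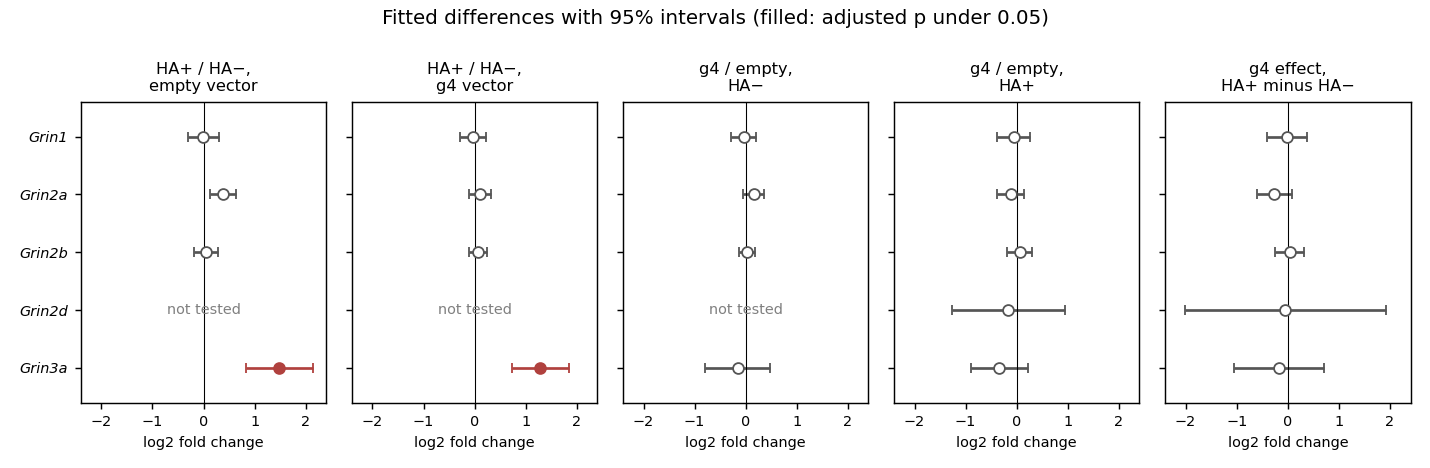
Log2 fold changes (horizontal axis) of the tested subunit genes in the 5 comparisons, with 95% intervals as bars; filled points passed an adjusted p of 0.05 by edgeR. Grin3a is past the threshold in both comparisons of HA-positive with HA-negative nuclei, 0 genes are in the other 3, and Grin2c, which failed the filter in each comparison, is not drawn.

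Levels of different genes were compared per kilobase of annotated exon. Over all 28 libraries the order was Grin2b (63.2 ± 8.07 CPM per kilobase), Grin2a (32.7 ± 5.77), Grin1 (24.9 ± 3.80), Grin3a (5.12 ± 3.31), Grin2d (2.59 ± 2.49) and Grin2c (1.59 ± 1.28; SD, n = 28 libraries from 7 animals). Grin2b exceeded Grin2a in every group, with the lowest Grin2b library (46.7) just under the highest of Grin2a (47.7). The ranges of Grin2a and Grin1 overlapped, and their order turned when the length of the longest coding transcript was used instead (Grin1 56.4 ± 8.61, Grin2a 40.0 ± 7.07). By that length Grin2b, at 65.2 ± 8.33, was close to Grin1. Grin3a was the highest of the 3 scarce subunits in the mean of every group. In HA-negative nuclei with the empty vector they were at 3.01 ± 1.32 (Grin3a), 2.09 ± 0.901 (Grin2c) and 1.01 ± 0.848 CPM per kilobase (Grin2d), and in HA-positive nuclei at 8.23 ± 3.69, 0.560 ± 0.607 and 4.44 ± 2.26. Whether reads in introns were counted is not given in the sources used here, and in nuclear RNA this would weigh on a comparison by length.

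Of the other genes of NMDA receptor function, 50 were listed in 3 groups. They are AMPA, kainate and delta receptor subunits with Grin3b (12 genes), postsynaptic scaffold and signalling genes (26) and genes of the co-agonist and of glutamate uptake (12). Between HA-positive and HA-negative nuclei with the empty vector, 1 of 40 tested rose and 4 fell, where 3.5% of all genes rose and 3.5% fell, and the median was -0.21 against 0.01 over all genes. With g4, 4 of 41 rose and 3 fell, where 3.32% of all genes rose and 3.08% fell, and the median was -0.08 against 0.01. With the empty vector the count called was 3 without animal 21. Between g4 and empty, edgeR, DESeq2 and limma voom called 0 of 39 tested in HA-positive and 0 of 41 in HA-negative nuclei, and 0 of 42 in the difference between the effects, with 3, 3 and 5 at an unadjusted p under 0.05 by edgeR.

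Dlgap1, a scaffold protein bound to PSD-95, rose with both vectors, from 284 ± 51.2 to 416 ± 33.5 CPM with empty and from 334 ± 70.5 to 477 ± 51.3 CPM with g4 (0.55 ± 0.13 and 0.52 ± 0.13, adjusted p = 0.00614 and 0.00826, higher in 7 of 7 animals each). Its relative Dlgap2 rose with g4 (0.74 ± 0.19, adjusted p = 0.0111) and was at 0.22 ± 0.19 with empty. Among AMPA receptor subunits, Gria4 (0.72 ± 0.17, adjusted p = 0.00747) and Gria1 (0.55 ± 0.13, adjusted p = 0.00669) rose with g4 and were at 0.34 ± 0.22 and 0.31 ± 0.15 with empty. Ppp3ca, the catalytic subunit of the calcium-activated phosphatase calcineurin, fell with both vectors, from 1198 ± 156 to 714 ± 244 CPM with empty and from 1095 ± 84.0 to 691 ± 106 CPM with g4 (lower in 7 of 7 animals each). Glul, the glutamine synthetase of astrocytes, also fell with both, by 0.90 and by 0.77 on the log2 scale (adjusted p = 0.0275 and 0.00249). Leaving out 1 animal ended some of these calls, with the direction kept. For Glul with the empty vector this was so without animal 17, 19, 20 or 21 (adjusted p = 0.0712 to 0.104) and also without the HA-positive libraries of under 10000 genes (adjusted p = 0.0615). For Ppp3ca with the empty vector it was animal 23 (adjusted p = 0.0553), and with g4 it was animal 20 or 22 for Dlgap1 (0.0532 and 0.0542), animal 17 or 20 for Dlgap2 (0.0630 and 0.0543) and animal 17 for Gria4 (0.0646).

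The other calls were made with 1 vector. Camk2b, a subunit of the kinase CaMKII that binds GluN2B, fell with empty (-0.65 ± 0.17, adjusted p = 0.0121) and was at -0.33 ± 0.12 with g4 (adjusted p = 0.108). The call with empty was lost without animal 21 (-0.47 ± 0.15, adjusted p = 0.0685) and without the HA-positive libraries of under 10000 genes (-0.47 ± 0.16, adjusted p = 0.0526). Slc1a2, the main glutamate transporter of astrocytes, fell with empty (-0.68 ± 0.14, adjusted p = 0.00150) and was at -0.05 ± 0.16 with g4. Ptk2b, the calcium-activated kinase Pyk2, fell with g4 (-1.02 ± 0.16, adjusted p = 5.12e-05) and was at -0.64 ± 0.25 with empty (adjusted p = 0.141). For none of the listed genes was the difference between vectors called in the interaction test. Slc1a2 is also on the astrocyte marker list, of which 1 of 6 tested was called lower in HA-positive nuclei with empty and 0 of 6 with g4. Over all genes tested, 3.5% were called lower with empty and 3.08% with g4.

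**Figure D4:**
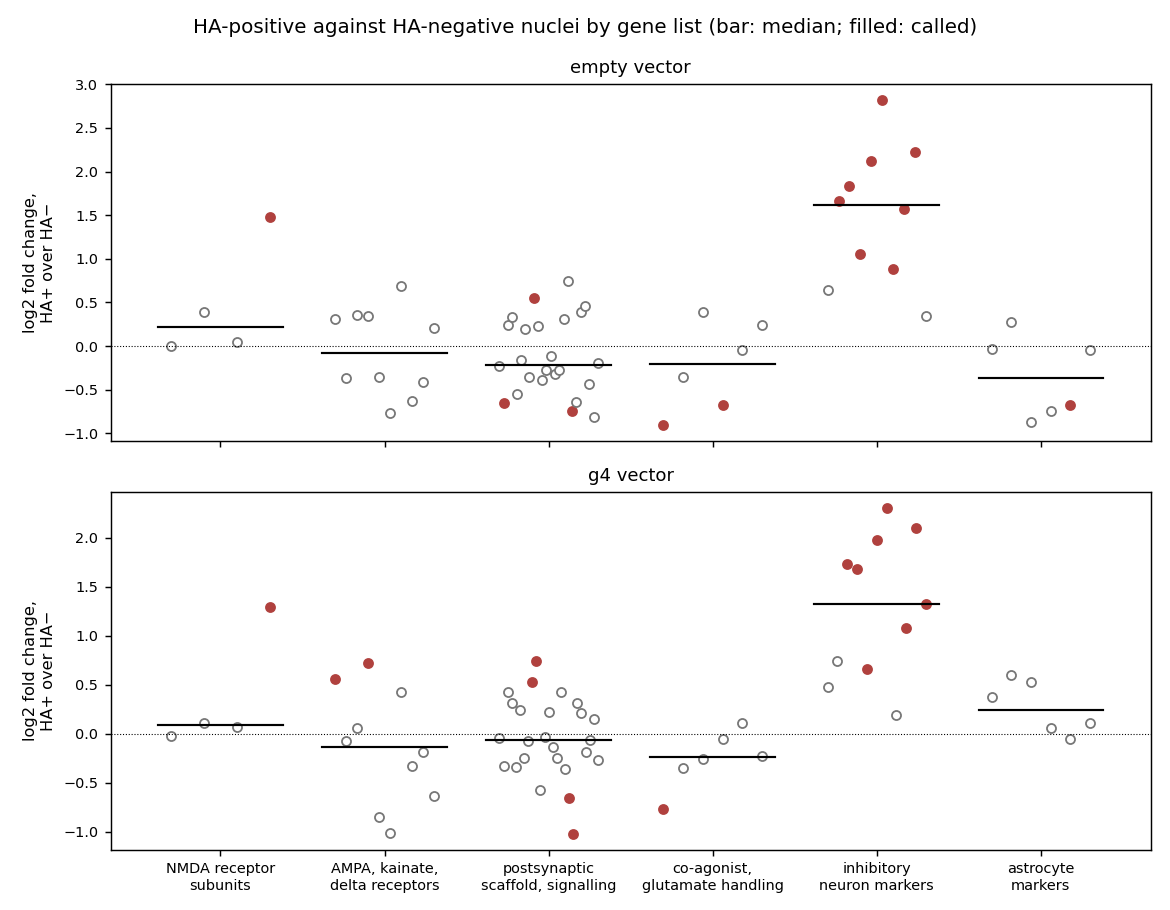
Log2 fold change of HA-positive over HA-negative nuclei (vertical axis) for each tested gene of 6 lists, with the empty vector above and g4 below; the bar is the median of the list and filled points passed an adjusted p of 0.05 by edgeR. Inhibitory neuron markers lie highest, with medians of 1.61 and 1.33, and Grin3a is the filled point among the NMDA receptor subunits.

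Genes whose levels ran most like a subunit's were ranked by Spearman's rho of log2 CPM over the 28 libraries, among 2864 genes that averaged at least 50 CPM (2865 for Grin2d). The libraries share animals, fractions and depth, so the values are a description. Grin3a ran most like Tmem130 (rho 0.81), Elavl2 (0.76) and Scn1a (0.76), a sodium channel gene. Grin2d ran most like 6430548M08Rik (0.75), Asns (0.74) and Ppargc1a (0.72), and Grin2a most like Copg1 (0.74), the potassium channel gene Kcnh7 (0.71) and Tom1l2 (0.69). For Grin2b the closest were Zfp91_1 (0.74), Med14 (0.62) and Arfgef2 (0.62). For Grin1 they reached 0.57 (9330159F19Rik), 0.57 (Ino80d) and 0.55 (Cbx6). Genes with a rho above 0.5 numbered 207 for Grin3a, 135 for Grin2d, 62 for Grin2a, 21 for Grin2b and 15 for Grin1. Grin2c was not ranked.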

How the data were processed

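RNA of fixed (1% PFA), HA-stained and sorted nuclei was made into libraries from 40 to 2000 pg of total RNA with the QIAseq FastSelect RNA library kit, per the labels' protocols. The authors deposited raw counts per gene, per the labels, and the build is GRCm38 per the submitters' processing notes. The sources used here name no aligner, counter, strand setting or molecular identifier. Cells without a value (71.6%) were read as 0, and 1 entry that names no gene was left out. Columns of animals 21 to 23 were tied to their samples through the sample descriptions.

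Each comparison was fitted on its own 14 libraries, or 28 for the interaction, with the two-sided robust quasi-likelihood test of edgeR 4.0.16 under R 4.3.3, after filterByExpr and TMM scaling. Calls needed an adjusted p under 0.05 (Benjamini-Hochberg). CPM used TMM factors over 28 libraries. Intervals are 1.96 SE. The fit was also run on counts simulated without an animal effect, so that run does not bear on the pairing of these libraries. Shares were tested by exact two-sided permutation over 3432 splits. Alternatives were the animal as a block, DESeq2 1.42.0 (size factors or Wald test), limma 3.58.1 voom, no filter, all groups in 1 model, and left-out animals or libraries. The animal numbers pair the samples, since same-numbered libraries come from the same mouse. Correlations of same-animal deviations from the group means had medians of 0.03 to 0.05 over 5841 genes.

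Members and lists were chosen with earlier results of these data known. Named genes were all 6 members, called pathway genes with at least 20 CPM in the higher group (up to 4 rises and 4 falls per comparison) and the 3 most similar genes per member. Gene models are GENCODE's for GRCm38, matched by Ensembl identifier. Marker lists covered excitatory, inhibitory and striatal projection neurons, astrocytes, oligodendrocytes and their precursors, microglia and endothelial cells.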

Additional observations from a re-analysis of the deposited data

Results flagged for a closer look

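In 36 groups of 7 libraries (the 6 subunit levels and 3 proportions in 4 groups), 2 held a library whose gap to its neighbour took more of the group's range than Dixon's 95% critical value for 7 libraries, where chance gives about 1 group in 20. Both belong to animal 22 and to the HA-negative fraction. Grin1 in the empty HA-negative group was highest in animal 22, at 292.7 CPM, with the next library at 253.1 CPM (0.573 of the range). Grin3a in the g4 HA-negative group was highest in animal 22, at 67.1 CPM, with the next library at 35.4 CPM (0.654 of the range). Without animal 22 the Grin3a difference between fractions with g4 was 1.49 ± 0.30 on the log2 scale (adjusted p = 0.00279 by edgeR), against 1.29 ± 0.29 with it.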

How the results depend on the processing

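Grin3a stayed above the threshold between fractions, with both vectors, in each alternative run, at log2 fold changes of 1.29 to 1.69 (empty) and 1.14 to 1.49 (g4). Between g4 and empty, and in the difference between these effects, the number of subunit genes called stayed 0 in each alternative. The number called between fractions with the empty vector was 1, and it was 2 with limma voom (Grin2a, Grin3a), 2 without a filter on low counts, 2 without HA-positive libraries of under 10000 genes (both Grin2d, Grin3a), 3 with all 4 groups in 1 model (Grin2a, Grin2d, Grin3a) and 1 to 2 over fits that left out 1 animal. With g4 it was 1, and 2 without a filter (Grin2d, Grin3a). Where a filtered fit tested Grin2d between fractions, Grin2d entered through its HA-positive libraries, so its calls there are no separate support. The fit without libraries of under 10000 genes also left out the empty HA-positive library of animal 21, where Grin2d was at 2.76 CPM. Pathway genes called with the empty vector went from 5 to 9 with all 4 groups in 1 model and ranged from 3 (without animal 21) to 7 over fits that left out 1 animal, and without a filter 1 (Slc1a2, 0.71 ± 0.14, higher with g4) was called against 0 between vectors in HA-positive nuclei. Over all genes without a filter, 428 were called lower between fractions with the empty vector against 194 (347 with all 4 groups in 1 model) and 296 against 193 with g4. Over all genes, g4 against empty in HA-positive nuclei called 1 higher and 2 lower. This was 14 and 14 without a filter, 5 and 6 with DESeq2, 6 and 2 with all 4 groups in 1 model, 0 and 2 with limma voom, 0 and 1 with the block, 0 and 0 without the libraries of under 10000 genes, and 2 and 3 without the g4 library of animal 19. The difference between effects called 2 and 1 without a filter against 0 and 0. Leaving out 1 animal gave 0 (animal 18) to 2 (animal 19) higher and 1 (animals 18, 22 and 23) to 3 lower in HA-positive nuclei. Between fractions it gave 122 to 183 higher and 129 to 188 lower with the empty vector (fewest without animal 19), and 121 to 213 higher and 91 to 209 lower with g4 (fewest without animals 20, 21 and 22).

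With the animal as a replicate block, the number of subunit genes called was the same in all 5 comparisons. The proportions have sign flips within animals as their block, whose smallest p is 0.0156, so that after adjustment over 12 tests the design could hardly pass. The differences of 0.974 percentage points (Grin2d share, empty), 27.6 (Grin3a per 100 Grin1, empty) and 21.3 (g4) then missed the threshold, at adjusted p = 0.125 for the Grin2d share and 0.0938 for the Grin3a ratios by the exact sign-flip test.

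Signs turned for differences near 0, and the cause was not tested. Without HA-positive libraries of under 10000 genes, g4 against empty in HA-positive nuclei was 0.059 for Grin1 and -0.079 for Grin2b, and the difference between effects 0.093 and -0.12. With limma voom the latter were 0.011 and -0.0071 (Grin1 0.026 without a filter), and Grin3a with g4 in HA-negative nuclei was 0.030. When the library of animal 19 left the g4 HA-positive group, Grin2d with g4 in HA-positive nuclei turned to 0.07 (log2), 0.651 CPM and 0.0146 percentage points of the GluN2 counts, its difference between effects to 0.17, and its share between fractions with g4, at 1.02, passed.

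Leaving out 1 animal at a time gave these ranges of log2 fold changes that crossed 0. For fractions they were -0.070 to 0.054 for Grin1 with the empty vector, -0.060 to 0.0036 with g4, and -0.032 to 0.14 for Grin2b with the empty vector. For g4 against empty they were -0.11 to 0.041 (Grin1) and -0.015 to 0.088 (Grin2b) in HA-negative nuclei, and -0.15 to 0.094 (Grin1), -0.018 to 0.12 (Grin2b) and -0.66 to 0.20 (Grin2d) in HA-positive nuclei. For the difference between effects they were -0.060 to 0.045 (Grin1), -0.048 to 0.10 (Grin2b), -0.75 to 0.45 (Grin2d) and -0.55 to 0.10 (Grin3a). Among proportions, the Grin2b share between fractions with g4 ranged from -1.27 to 0.217 percentage points. The Grin2d share ranged from 0.771 to 1.18 (fractions, empty), 0.573 to 0.998 (fractions, g4), -0.111 to 0.0164 (vectors, HA-negative) and -0.607 to 0.163 (vectors, HA-positive). The Grin3a ratio ranged from 20.0 to 31.8 (fractions, empty; 3 of 7 tests missed the threshold), 18.8 to 23.6 (fractions, g4; 5 of 7 missed it), -4.69 to 0.436 (vectors, HA-negative) and -13.1 to 2.64 (vectors, HA-positive). Depth limits Grin2c and Grin2d most, with 0 to 18 and 0 to 38 counts per library.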
